A study of Mus musculus with 4 samples.

Results

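The genes described here are 4 chemokine ligands that draw monocytes into tissue, Ccl2, Ccl7, Ccl8 and Ccl12, and Ccr2, the receptor through which monocytes sense them. They were chosen by name, as 5 of the 31053 genes counted, and each of the 5 had counts in all 4 libraries. The study profiled B16F10 tumours, a transplantable mouse melanoma described by its submitters as resistant to immune checkpoint blockade, by single-cell RNA sequencing from the 5' end of transcripts. The 4 libraries form 1 group each. The first is the control. The second, aPD-1, carries an antibody against the T cell checkpoint receptor PD-1. The third, D+F, carries doxorubicin, an anthracycline that causes immunogenic cell death, and fasudil, an inhibitor of the kinase ROCK. The fourth, D+F+P, carries doxorubicin, fasudil and the PD-1 antibody. Tumours were dissociated and cleared of red blood cells, debris and dead cells in every group. Mouse strain, age, doses, times and the number of mice per library are not given in the sources used here.

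Ccl2, Ccl7, Ccl8 and Ccl12 are small secreted proteins of the CC chemokine family. They act on Ccr2, to differing degrees, and Ccl7 and Ccl8 also act on other receptors of the family. Ccr2 couples to inhibitory G proteins and guides the exit of inflammatory monocytes from bone marrow and their entry into tumours, where they can mature into macrophages. Macrophages, fibroblasts and some tumour cells can make the ligands, and NF-kB is known to activate transcription of Ccl2.

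The 4 ligand genes lie on chromosome 11 of GRCm38 within 81.2 kb, all on the plus strand and each with 3 exons. Ccl2 (ENSMUSG00000035385) spans positions 82035571 to 82037453, and Ccl7 (ENSMUSG00000035373) spans 82045712 to 82047525. Ccl12 (ENSMUSG00000035352) spans 82101845 to 82103400, and Ccl8 (ENSMUSG00000009185) spans 82115185 to 82116799. Ccr2 (ENSMUSG00000049103) lies on chromosome 9 from 124101950 to 124113557. The annotated transcripts of any pair of the 5 genes shared 0 stretches of 31 bases, so no such stretch could have assigned a read to the wrong member.

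Promoter sequence was matched in the RefSeq table of GRCm38.p6 for 3 of the 5 members. The 250 bases before the start of Ccl12 (chr11:82101595-82101844) and Ccl8 (chr11:82114935-82115184), neighbours on the chromosome and the pair whose counts were most concentrated in macrophages, are shown 5′ to 3′ on the plus strand. Capitals mark the 3 stretches of at least 8 bases that the pair shared, found by a search chosen after the sequences had been seen.
Ccl12: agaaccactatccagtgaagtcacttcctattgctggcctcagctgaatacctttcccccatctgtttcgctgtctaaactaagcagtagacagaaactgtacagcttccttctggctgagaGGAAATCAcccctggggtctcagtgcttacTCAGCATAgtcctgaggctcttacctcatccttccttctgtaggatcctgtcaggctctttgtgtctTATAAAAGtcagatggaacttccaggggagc
Ccl8: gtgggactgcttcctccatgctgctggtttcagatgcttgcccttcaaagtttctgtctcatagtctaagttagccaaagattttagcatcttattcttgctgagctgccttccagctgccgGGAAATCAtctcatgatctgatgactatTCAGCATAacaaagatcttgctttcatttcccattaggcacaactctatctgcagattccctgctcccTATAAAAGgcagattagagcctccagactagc
The stretches stood in the same order in both promoters. GGAAATCA began 128 bases before each start and was present in 0.472% of 32851 promoters of this length. TCAGCATA began 100 bases before the Ccl8 start and 98 before the Ccl12 start and was present in 0.21% of promoters. TATAAAAG, which holds a TATA box, began 32 and 31 bases before the starts and was present in 1.06%. Searches on both strands for an NF-kB type motif, TGANTCA (AP-1), GGGCGG (Sp1), TTCNNNGAA (STAT) and an IRF type motif gave 0 matches in the Ccl12, Ccl8 and Ccr2 windows. These motifs were present in 1.21%, 6.75%, 32.7%, 7.02% and 2.98% of all promoters of that length. A match or its absence describes the letters of these windows only.

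The matrices held 2525 to 2809 barcodes and 22691663 to 34444856 UMIs per library, a UMI (unique molecular identifier) being the tag that counts 1 captured transcript. Of these barcodes 2214 to 2483 per library were kept. The median kept cell held 16143 UMIs in the control, 9563.5 in aPD-1, 12882 in D+F and 1866 in D+F+P. Library pairs shared 1 to 14 kept barcodes, and 0 of these were monocyte/macrophage-like in both libraries. With 1 library per group there was no test between groups, cells are not replicates, and every interval covers counting error only, at 95%. Levels are CPM, the UMIs of a gene scaled to a fixed total of UMIs in its class, and a ratio of levels is called higher or lower where it reached 1.5-fold with at least 20 UMIs in the pair and 20 cells in each library.

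Cells were clustered without the 5 members and named from marker genes. The monocyte/macrophage-like class held 59 cells in the control, 194 in aPD-1, 77 in D+F and 63 in D+F+P, or 2.59%, 8.76%, 3.1% and 2.58% of the kept cells. Within it, C1q macrophage-like cells, which carry complement C1q, numbered 5, 50, 23 and 9 in that order of libraries. C1q-low monocyte-like cells numbered 18, 79, 32 and 34. A pair of sub-clusters stayed unnamed: sub-cluster 1, led by Saa3, Ptges and Cxcl3, with 94 cells, and sub-cluster 5, led by pigment genes such as Dct and Mlana, with 49. Sub-cluster 1 made up 50.8% of the class in the control (interval 37.5% to 64.1%), while C1q-low monocyte-like cells were the largest part elsewhere, at 40.7% in aPD-1, 41.6% in D+F and 54.0% in D+F+P. Fibroblast-like cells numbered 13, 44, 7 and 25.

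Marker levels of these classes are given as a description. The same markers named the clusters, so they are no independent check of the labels. All 10 monocyte/macrophage markers were detected in the C1q macrophage-like cells of every library, where fibroblast markers summed to between 0 and 199 CPM. All 7 fibroblast markers were detected in the fibroblast-like cells of every library. Monocyte/macrophage markers summed to 265 CPM in the fibroblast-like cells of the control, 104 in aPD-1, 199 in D+F and 34.4 in D+F+P, with Adgre1 at 0 in all 4. Sub-cluster 5 carried melanoma markers at a sum of 7275, 4657, 910 and 580 CPM in the 4 libraries in the order above, and their part in its ligand counts was not tested.

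Fibroblast-like and monocyte/macrophage-like cells, 0.945% and 4.17% of the kept cells, held nearly all UMIs of the 4 ligands. Over the libraries together, fibroblast-like cells held 63.1% of the 7885 Ccl2 UMIs and monocyte/macrophage-like cells 33.9%. For Ccl7, the fibroblast-like share was 53.3% of 4068 UMIs and the monocyte/macrophage-like share 44.9%. For Ccl8 the order turned, with 28.0% of 3204 UMIs in fibroblast-like and 69.9% in monocyte/macrophage-like cells. Ccl12 was a macrophage transcript in these data, with 4.11% of its 608 UMIs in fibroblast-like and 93.4% in monocyte/macrophage-like cells.

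Inside the myeloid class the ligands separated again. C1q macrophage-like cells held 59.2% of all Ccl8 UMIs and 67.4% of all Ccl12 UMIs, but 31.9% of Ccl7 and 14.1% of Ccl2. C1q-low monocyte-like cells held 8.8% of Ccl2, 2.11% of Ccl7 and 11.3% of Ccl12. Of Ccl8, C1q-low monocyte-like cells held 0.0312%, which was 1 UMI in 163 cells. Ccl2 was found in 50.0% of C1q-low monocyte-like cells in the control and 84.4% in D+F, so these cells carried Ccl2 and nearly no Ccl8.

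**Figure D1:**
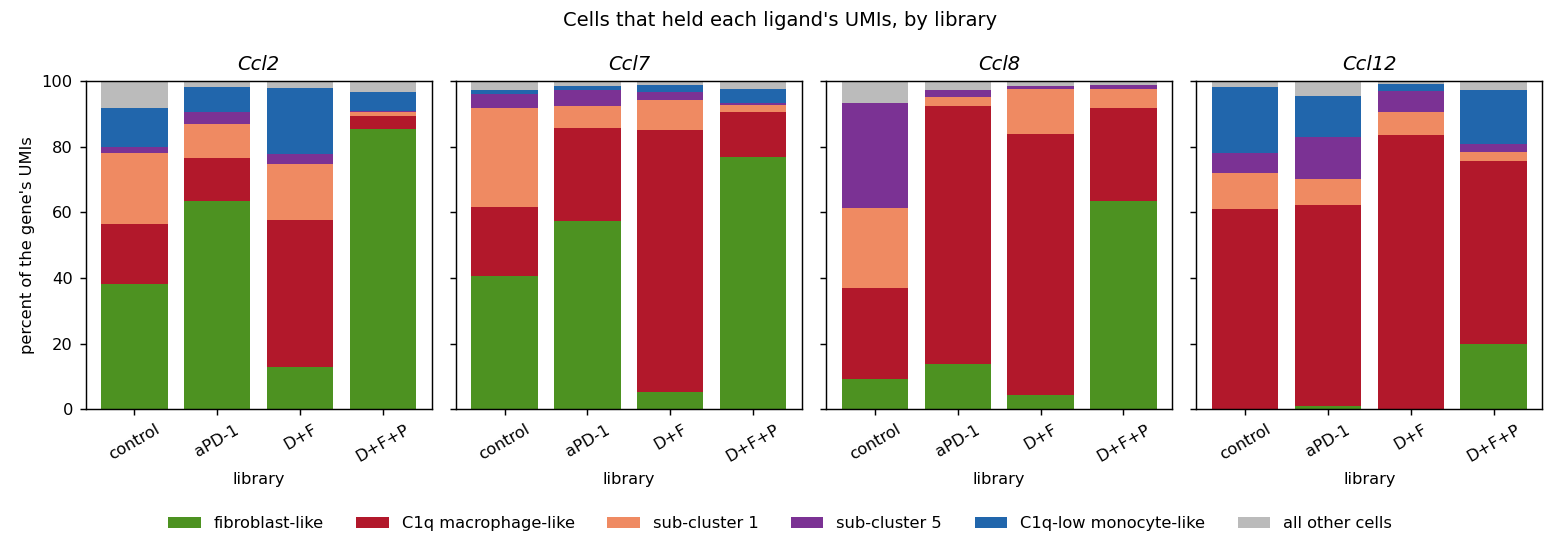
Percent of each ligand's UMIs (vertical axis) held by each cell class, stacked, for each library (horizontal axis), 1 panel per ligand. Fibroblast-like cells held 85.4% of the Ccl2 UMIs of D+F+P and 12.8% of those of D+F, and Ccl12 was held mostly by monocyte/macrophage-like cells in all 4 libraries.

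The main source of a ligand differed between libraries. Fibroblast-like cells held 38.1% of the Ccl2 UMIs in the control, 63.5% in aPD-1, 12.8% in D+F and 85.4% in D+F+P. For Ccl7 these shares were 40.7%, 57.5%, 5.23% and 76.9%. For Ccl8 they were 9.09%, 13.9%, 4.34% and 63.6%. For Ccl12 they were 0%, 1.14%, 0% and 20%. For each ligand the fibroblast-like share was highest in D+F+P. The share follows the number of cells caught as well as their level: fibroblast-like cells were 0.571%, 1.99%, 0.282% and 1.02% of the kept cells.

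Single cells weighed on these shares. Without the richest fibroblast-like cell of each library, the Ccl2 shares were 19.0%, 60.4%, 4.76% and 81.6%, so the order of the libraries held. The Ccl8 shares became 1.96%, 11%, 1.41% and 38.8%, and the Ccl12 share of D+F+P became 5.15%. In D+F+P 1 fibroblast-like cell held 439 of the 688 fibroblast Ccl8 UMIs.

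Ccl2, the main attractant of Ccr2-bearing monocytes, was found in 49.2% of monocyte/macrophage-like cells in the control, 62.4% in aPD-1, 80.5% in D+F and 69.8% in D+F+P. Its level in the class was 1430 CPM (interval 1278 to 1594) in the control, 1568 (1478 to 1662) in aPD-1, 2992 (2798 to 3197) in D+F and 1249 (1118 to 1392) in D+F+P. D+F stood above the other libraries, whose intervals overlapped for the control with each of aPD-1 and D+F+P. The median cell of the class held 0, 1.5, 4 and 2 Ccl2 UMIs in the 4 libraries.

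D+F was also the highest library for Ccl2 in C1q macrophage-like cells, C1q-low monocyte-like cells and sub-cluster 1. C1q macrophage-like cells held Ccl2 at 3062 CPM in the control, 1570 in aPD-1, 3514 in D+F and 2008 in D+F+P. In D+F+P 1 cell held 62 of the 113 UMIs, and without the richest cell of each library the levels were 2537, 1360, 2907 and 1004 CPM, with D+F+P the lowest. The D+F+P interval (747 to 1320) then overlapped that of aPD-1 (1221 to 1510). C1q-low monocyte-like cells held Ccl2 at 1245, 953, 2010 and 1096 CPM. Sub-cluster 1 held it at 1346, 2807, 4240 and 998 CPM, from 30, 41, 12 and 11 cells, and 1 of the 12 cells of D+F held 51 UMIs. The control value of C1q macrophage-like cells rests on 5 cells, and its interval (2519 to 3688) overlapped that of D+F (3201 to 3849).

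Fibroblast-like cells held Ccl2 at 3202 CPM in the control, 2805 in aPD-1, 3279 in D+F and 6185 in D+F+P. The control and D+F values were carried by 1 cell each, with 61.7% and 65.9% of the UMIs, and without the richest cell of each library the levels were 1411, 2521, 1295 and 5018 CPM. The D+F+P value stayed highest, and 24 of its 25 cells held Ccl2.

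Ccl7, a ligand of Ccr2 and of other CC receptors, ran at 744 CPM (635 to 865) in monocyte/macrophage-like cells of the control, 1160 (1083 to 1241) in aPD-1, 2010 (1851 to 2178) in D+F and 843 (736 to 961) in D+F+P. The order was D+F, then aPD-1, then D+F+P and the control, and the last pair overlapped. C1q macrophage-like cells held 1710, 2160, 3825 and 2630 CPM, or 1697, 1971, 3258 and 1633 without the richest cell, which moved D+F+P from second to lowest. Its interval there (1301 to 2025) overlapped those of the control (1223 to 2294) and aPD-1 (1804 to 2150). The levels were lower in C1q-low monocyte-like cells, at 70.1, 88.8, 136 and 292 CPM. There the D+F+P value was the highest (213 to 390), but its interval overlapped that of D+F (74.3 to 228), as it did without the richest cells (141 to 295 and 41.7 to 173). With a stricter cell filter the ratio to aPD-1 went from 1.72 to -0.05. Fibroblast-like cells held 1685, 1586, 820 and 2030 CPM.

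Ccl8, also a ligand of several CC receptors, was detected in few cells but at many UMIs in each. It was found in 15.3% of monocyte/macrophage-like cells in the control, 22.7% in aPD-1, 28.6% in D+F and 22.2% in D+F+P. The class level was 615 CPM (517 to 726), 1321 (1238 to 1407), 2581 (2401 to 2771) and 1447 (1305 to 1599) in that order. D+F was the highest library and the control the lowest, while the intervals of aPD-1 and D+F+P overlapped. Without the richest cell of each library the levels were 466, 1105, 2237 and 552 CPM, and D+F+P (463 to 653) then lay below aPD-1 (1029 to 1185).

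C1q macrophage-like cells held Ccl8 at 1269, 3342, 4865 and 5402 CPM. In D+F+P 1 of the 9 cells held 245 of the 304 UMIs (80.6%), and without the richest cell of each library the levels were 1132, 2843, 4357 and 1504 CPM. That removal moved D+F+P from the highest to the third, with an interval (1145 to 1940) that overlapped that of the control (752 to 1636). C1q-low monocyte-like cells held 0 Ccl8 UMIs in the control, D+F and D+F+P, where a count of 0 allows up to 52.6, 29.1 and 19.5 CPM, and 1 UMI in aPD-1. Fibroblast-like cells held 209, 214, 869 and 1691 CPM, or 48.6, 168, 360 and 680 without the richest cell.

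Ccl12, a mouse chemokine closely related to Ccl2, followed another order. Its level in monocyte/macrophage-like cells was 513 CPM (424 to 616) in the control, 227 (193 to 264) in aPD-1, 673 (583 to 774) in D+F and 338 (271 to 416) in D+F+P. aPD-1 was the lowest library, and the control and D+F overlapped. With the richest cells left out the levels were 314, 210, 435 and 202 CPM, and aPD-1 (178 to 246) overlapped D+F+P (151 to 264). In C1q macrophage-like cells the levels were 1986, 395, 1267 and 1137 CPM, and 1 of the 5 control cells held 65.3% of the control UMIs. Without the richest cells these levels were 835, 354, 770 and 531 CPM, with aPD-1 still the lowest. The aPD-1 interval (286 to 434) then overlapped that of D+F+P (350 to 773). In fibroblast-like cells Ccl12 was near the limit of detection: 0 UMIs in the control and D+F, 2 in aPD-1, and 23 in D+F+P, of which 1 cell held 18.

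**Figure D2:**
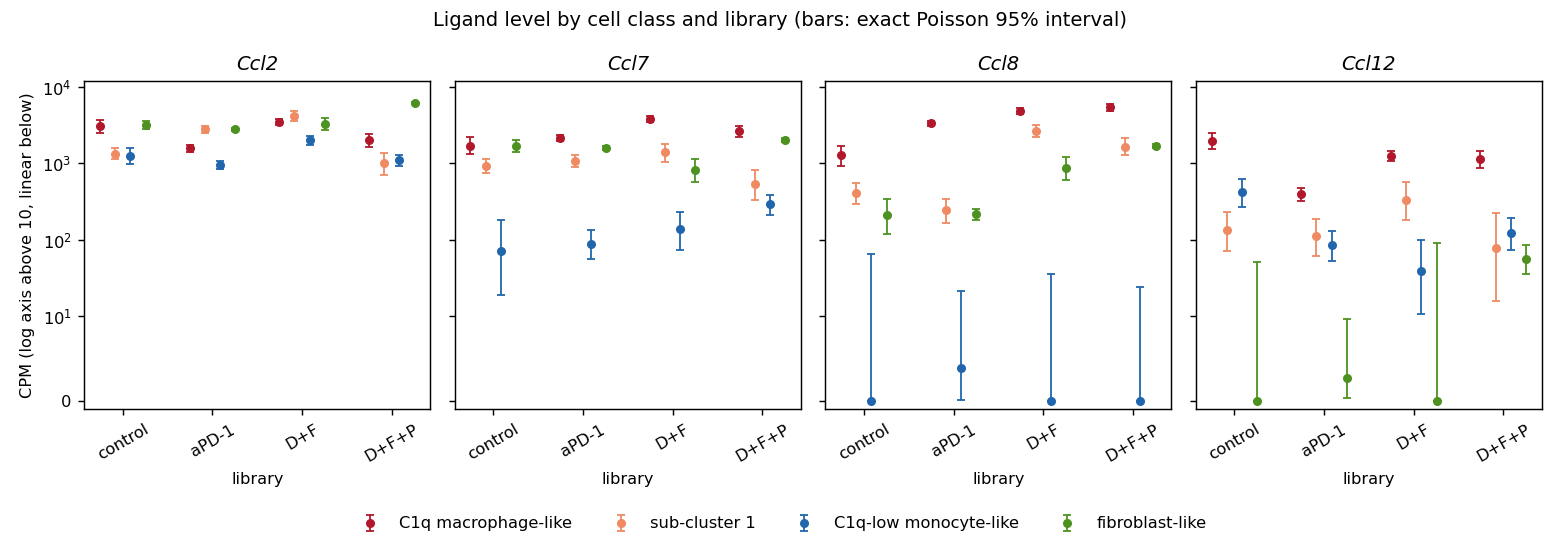
Level of each ligand in CPM (vertical axis, log above 10 and linear below) in the cell classes of each library (horizontal axis), with exact Poisson 95% intervals as bars, 1 panel per ligand. Ccl2 and Ccl7 were high in fibroblast-like and C1q macrophage-like cells alike. Ccl7, Ccl8 and Ccl12 lay far lower in C1q-low monocyte-like cells than in C1q macrophage-like cells.

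The first comparison set the PD-1 antibody alone against the control. In monocyte/macrophage-like cells of aPD-1 against control, Ccl7 was higher by 0.64 (log2 ratio of CPM, interval 0.4 to 0.89) and Ccl8 by 1.1 (0.84 to 1.37). Ccl12 was lower, at -1.18 (-1.53 to -0.82), and Ccl2 did not pass 1.5-fold, at 0.13 (-0.05 to 0.32). Thus 2 of the 4 ligands were called higher and 1 lower, where 20.6% of the 4688 genes measured were called higher and 14.0% lower. The higher count was 1 with no doublet removal, with cells named by their own markers or with thinned cells. The Ccl12 call was lost without the cell richest in Ccl12 in each library, at -0.58. The makeup of the class moved beside it: C1q macrophage-like cells were 8.47% of the class in the control and 25.8% in aPD-1, and their part in the ratios was not tested.

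The second comparison set doxorubicin and fasudil against the control. In D+F against control, Ccl2 was higher by 1.07 (0.88 to 1.25), Ccl7 by 1.43 (1.18 to 1.69) and Ccl8 by 2.07 (1.81 to 2.34). Ccl12 did not pass 1.5-fold, at 0.39 (0.05 to 0.73). Thus 3 of the 4 ligands were called higher and 0 lower, beside 17.7% of 3056 genes called higher and 15.5% called lower. Without the richest cells the ratios were 1.07, 1.59, 2.26 and 0.47. C1q macrophage-like cells made up 29.9% of the class in D+F, and their part in the ratios was not tested.

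Adding the PD-1 antibody to doxorubicin and fasudil came with lower ligand levels in the same class. Between D+F+P and D+F the log2 ratio was -1.26 (-1.45 to -1.08) for Ccl2, -1.25 (-1.48 to -1.03) for Ccl7, -0.84 (-1.02 to -0.66) for Ccl8 and -0.99 (-1.37 to -0.63) for Ccl12. All 4 ligands were called lower, where 15.6% of 3196 genes were called lower and 14.4% higher. Without the richest cells the Ccl8 ratio was -2.02. C1q macrophage-like cells made up 14.3% of the class in D+F+P, and their part in the ratios was not tested.

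Part of the class could be compared on its own. In C1q-low monocyte-like cells of D+F+P against D+F, Ccl2 was lower at -0.88 (-1.18 to -0.57), as in the class as a whole. Ccl7 was instead higher at 1.1 (0.21 to 2.08, 45 against 14 UMIs) and Ccl12 higher at 1.67 (0.08 to 3.68, 19 against 4 UMIs). Of all 1715 genes measured in these cells, 16.1% were called higher and 16.4% lower. The direction for Ccl7 and Ccl12 thus differed between these cells and the whole class, at low counts.

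D+F+P was also set against the control and against aPD-1. Against control, Ccl8 was higher by 1.23 (0.95 to 1.52) and Ccl12 lower at -0.6 (-1.02 to -0.19), while Ccl2 was at -0.19 and Ccl7 at 0.18. That made 1 ligand called higher and 1 lower, beside 20.6% and 18.3% of 2905 genes. With the richest cell of each library left out the Ccl8 ratio was 0.24, so that call was lost. Against aPD-1, 0 of the 4 ligands passed 1.5-fold in either direction, with ratios of -0.33, -0.46, 0.13 and 0.58 for Ccl2, Ccl7, Ccl8 and Ccl12, beside 12.5% of 4770 genes called higher and 19.0% lower. Leaving out the richest cells put Ccl8 at -1.0 (-1.27 to -0.74) and Ccl7 at -0.82 (-1.08 to -0.57), so that 2 ligands were called lower. The comparisons share libraries, so their values are not independent.

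**Figure D3:**
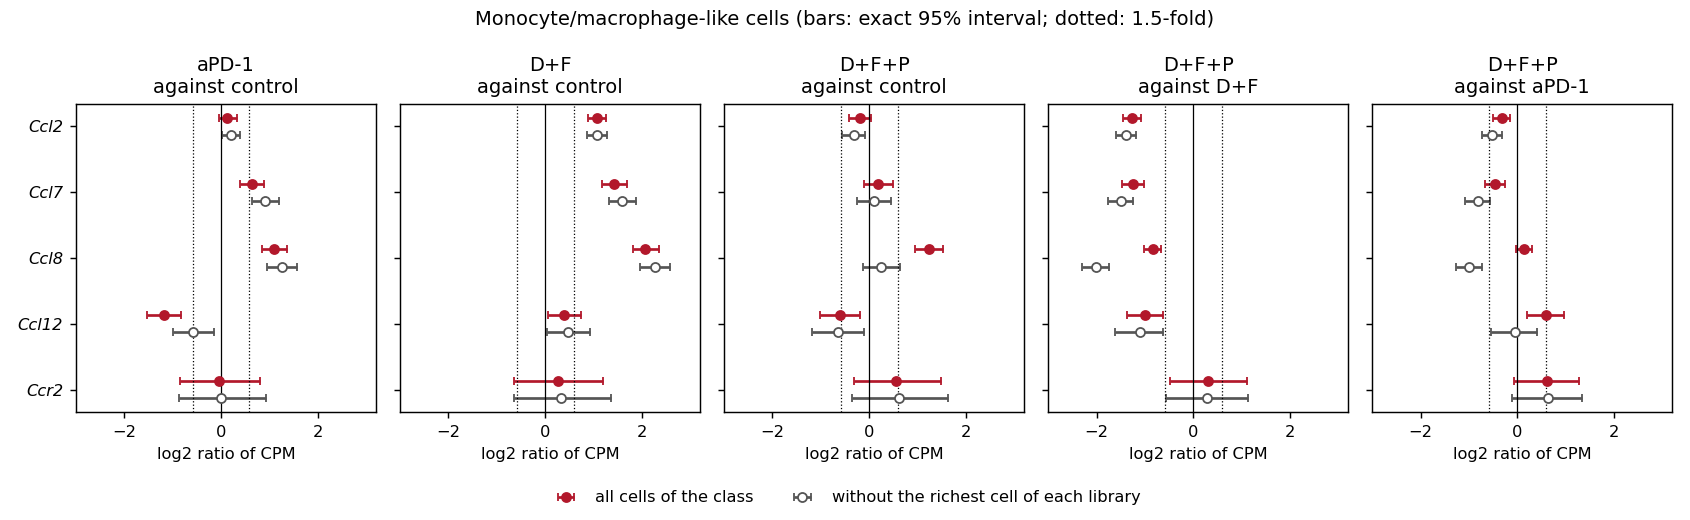
Log2 ratio of CPM (horizontal axis) of the 5 members in monocyte/macrophage-like cells, 1 panel per comparison, with exact 95% intervals as bars and dotted lines at 1.5-fold. Ccl2, Ccl7 and Ccl8 lie to the right in D+F against control, and all 4 ligands lie to the left in D+F+P against D+F.

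Fibroblast-like cells reached 20 cells only in aPD-1 and D+F+P, so theirs was 1 comparison. Against aPD-1, the D+F+P level of Ccl2 was higher by 1.14 (1.06 to 1.23), of Ccl8 by 2.98 (2.73 to 3.24) and of Ccl12 by 4.4 (2.39 to 7.53, 23 against 2 UMIs), while Ccl7 was at 0.36 (0.23 to 0.49). Of 5557 genes measured there, 22.0% were called higher and 15.7% lower. Without the richest cells the ratios were 0.99 for Ccl2, 2.02 for Ccl8 and 3.29 for Ccl12, the last from 6 UMIs. Another scaling between the libraries shifted all genes of this comparison by -0.11 on the log2 scale.

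Summed over all kept cells, the ligands moved with the share of each class as well as with its level. Ccl2 was at 17.9 CPM in the control, 126 in aPD-1, 33.2 in D+F and 134 in D+F+P. Ccl7 was at 8.81, 78.9, 20.3 and 48.8 CPM, and Ccl8 at 4.9, 44.0, 25.9 and 49.1 CPM. Ccl12 was at 3.5, 6.68, 6.43 and 5.23 CPM. Against control all 4 ligands were called higher in aPD-1, where 17.3% of 13510 genes were called higher and 6.19% lower. All 4 were also called higher in D+F, beside 12.2% of 13379 genes higher and 4.97% lower. Of the 4, Ccl2, Ccl7 and Ccl8 were called higher in D+F+P, with Ccl12 short of the threshold at 0.58, beside 22.5% of 13481 genes higher and 13.9% lower. D+F, with the highest Ccl2 level inside the myeloid class, was thus the treated library with the lowest Ccl2 level over all its cells.

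Over all cells the ligand ratios between D+F+P and D+F differed from those of the myeloid class. Ccl2 was higher by 2.01, Ccl7 by 1.27 and Ccl8 by 0.92, and Ccl12 was at -0.3, beside 19.3% of 13569 genes called higher and 7.45% lower. With cells thinned to 1000 UMIs, 0 ligands were called higher and 1 lower, with Ccl8 at -0.66 (-1.08 to -0.26). Cells below 1000 UMIs were left out of that setting, and the median T-like cell of D+F+P held 995.5 UMIs. The thinned ratios thus rest on fewer cells, each at equal weight, and do not check depth alone. Over all kept cells of D+F+P against aPD-1, unthinned, Ccl7 was lower at -0.69 (6.89% of 13579 genes called lower, 12.3% higher). The other 3 ligands did not pass 1.5-fold. Melanoma-like cells, which hold little of the ligands, were 1653 of the kept cells in D+F and 527 in D+F+P.

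Within single cells the ligands were found together most in C1q macrophage-like cells. All 4 were detected in 39 of 87 such cells (44.8%), in 6 of 89 fibroblast-like cells (6.74%), in 6 of 94 cells of sub-cluster 1 (6.38%) and in 0 of 163 C1q-low monocyte-like cells. Fibroblast-like cells most often held 2 ligands (39.3%) or 3 (37.1%). Of the fibroblast-like cells with Ccl2, 91.8% also held Ccl7, beside 18.8% of those without Ccl2. Thinned to 1000 UMIs per cell, those shares were 79.7% and 18.5%. Of the C1q macrophage-like cells with Ccl12, 90.4% held Ccl7, beside 48.6% of those without. After the same thinning these were 77.8% (57.7% to 91.4%) and 51.8%.

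**Figure D4:**
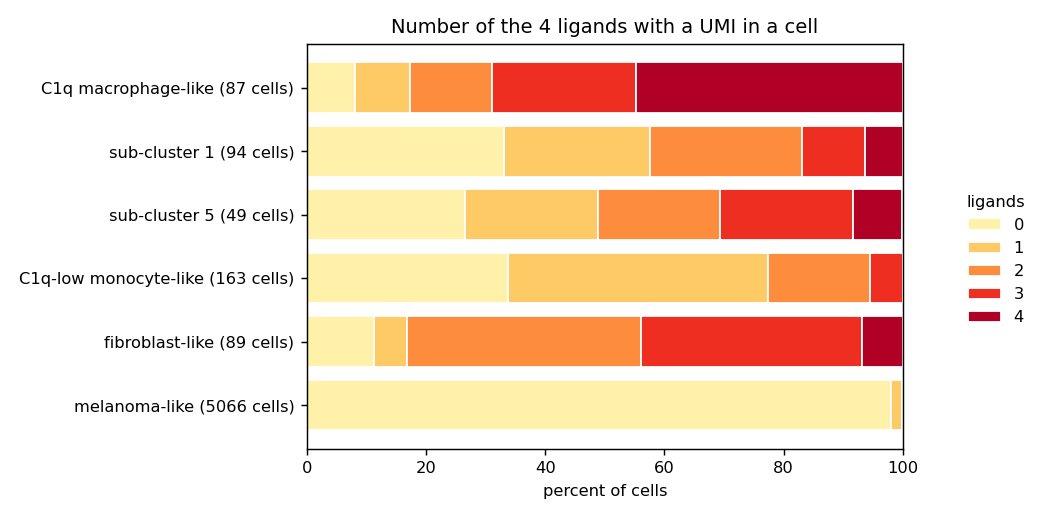
Percent of cells (horizontal axis) with a UMI of 0, 1, 2, 3 or 4 of the ligands, stacked, for each class with the libraries together. All 4 were found in 44.8% of C1q macrophage-like cells and in 0 of 163 C1q-low monocyte-like cells.

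Outside these classes ligand counts were sparse. Melanoma-like cells held Ccl2 at 1.32 CPM in the control (42 UMIs in 17 of 1825 cells), 0.783 in aPD-1, 0.542 in D+F and 1.77 in D+F+P, where 19 of 26 UMIs came from 1 cell. Ccl2 was called lower in D+F against control in these cells, where 5.22% of genes were called lower, and higher in D+F+P against D+F, where 5.19% were called higher. The melanoma-like cells of the control held 1 UMI of the 3 C1q genes together and 32 of Col1a1 and Col3a1 beside those 42. The ratio of Ccl2 to C1q UMIs in melanoma-like cells was 0.41 in aPD-1 and 1.15 in D+F, where the monocyte/macrophage-like cells had 0.213 and 0.324. The ratio of Ccl2 to the collagens in the control was 1.31 in melanoma-like cells and 0.199 in fibroblast-like cells. Both classes held Ccl2, with 2099 UMIs in fibroblast-like and 1141 in monocyte/macrophage-like cells of aPD-1. A ratio to the reference genes of 1 class therefore cannot tell free RNA of both from transcripts of melanoma-like cells. Conventional dendritic-like cells held Ccl2 at 347, 68.2, 30.8 and 46.9 CPM, the first from 3 cells, and Ccl8 at 0 in every library.

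Ccr2, the receptor, had another distribution than its ligands. Of its 506 UMIs, T-like cells held 40.5%, monocyte/macrophage-like cells 26.3% (C1q-low monocyte-like cells alone 18.8%), NK-like cells 23.3% and conventional dendritic-like cells 7.51%. Fibroblast-like cells held 0.198%, a single UMI. Free RNA set a low background: 0 of 1825 melanoma-like cells held a Ccr2 UMI in the control, which allows up to 0.164%, 0 of 1061 in aPD-1, 0.121% in D+F and 0.569% in D+F+P, at median depths of 16423 to 28760 UMIs.

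Among myeloid cells of aPD-1 and D+F, Ccr2 was highest in C1q-low monocyte-like cells. The share with a Ccr2 UMI was 27.8% (9.69% to 53.5%) in the control, 27.8% (18.3% to 39.1%) in aPD-1, 50.0% (31.9% to 68.1%) in D+F and 35.3% (19.7% to 53.5%) in D+F+P. The level was 123, 170, 223 and 136 CPM, and the intervals of all 4 libraries overlapped in share and level. After thinning to 1000 UMIs the shares were 0%, 13.7%, 22.6% and 14.7%, with 0 of 18 cells in the control.

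C1q macrophage-like cells held Ccr2 at 55.2, 18.5, 30.4 and 107 CPM, from 2, 5, 4 and 6 UMIs. In aPD-1 and D+F, their level intervals (6.0 to 43.1 and 8.27 to 77.7) lay below those of the C1q-low monocyte-like cells (123 to 228 and 142 to 335). All 11 C1q macrophage-like cells with a Ccr2 UMI also held Ccl2 and Ccl7, beside 81.6% and 69.7% of the 76 without. After thinning, 5 of the 6 with Ccr2 held Ccl2 and 5 held Ccl7 (interval 35.9% to 99.6% for each). Those shares stood beside 64.9% and 58.4% of the thinned cells without Ccr2. Of the 55 C1q-low monocyte-like cells with Ccr2, 69.1% held Ccl2, beside 61.1% of those without, and 0 held Ccl8.

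Lymphocytes made up much of the Ccr2-bearing pool. NK-like cluster 10, whose barcodes are shallow, held Ccr2 in 1 of 4 cells in the control, 11.1% in aPD-1, 7.5% in D+F and 6.59% of 273 cells in D+F+P, at 443, 222, 258 and 92.7 CPM. T-like cluster 4, also shallow, had 36 cells with Ccr2, 28 of them in D+F+P. In the NK-like cluster 13 the share of cells with Ccr2 was 27.5%, 28.6%, 17.8% and 25.7% and the level 78, 118, 84 and 101 CPM, with overlapping intervals. In T-like cluster 16, which carries Foxp3, it was 30.8%, 15.6%, 23.3% and 31.1%, at 79.3, 52, 136 and 96.2 CPM. T-like cluster 6 stayed at 0 of 4 cells, 1.95%, 3.21% and 4.78%, and T-like cluster 8 at 0 of 29 cells, 7.69%, 6.03% and 12.4%. Conventional dendritic-like cells reached 26.2% in aPD-1, 24.0% in D+F and 34.6% in D+F+P.

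The makeup of Ccr2-bearing cells differed between libraries. There were 32 such cells in the control, 88 in aPD-1, 66 in D+F and 158 in D+F+P. Monocyte/macrophage-like cells were 40.6% of them in the control (23.7% to 59.4%), 36.4% in aPD-1, 31.8% in D+F and 11.4% in D+F+P (6.89% to 17.4%). T-like cells were 15.6%, 30.7%, 36.4% and 55.1%. T-like cells were also more numerous in D+F+P, with 1332 of the kept cells against 59 in the control, 584 in aPD-1 and 390 in D+F. Of the 1332, 659 were shallow barcodes of T-like cluster 4, at medians of 680 UMIs and 10.2% mitochondrial UMIs. Another 123 were of cluster 14, at 1046 UMIs and 12.7%. Cluster 6 numbered 272 in D+F+P and 308 in aPD-1, cluster 16 45 and 64, and cluster 8 233 and 91. Cluster 4 held 28 of the 158 Ccr2-bearing cells of D+F+P.

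**Figure D5:**
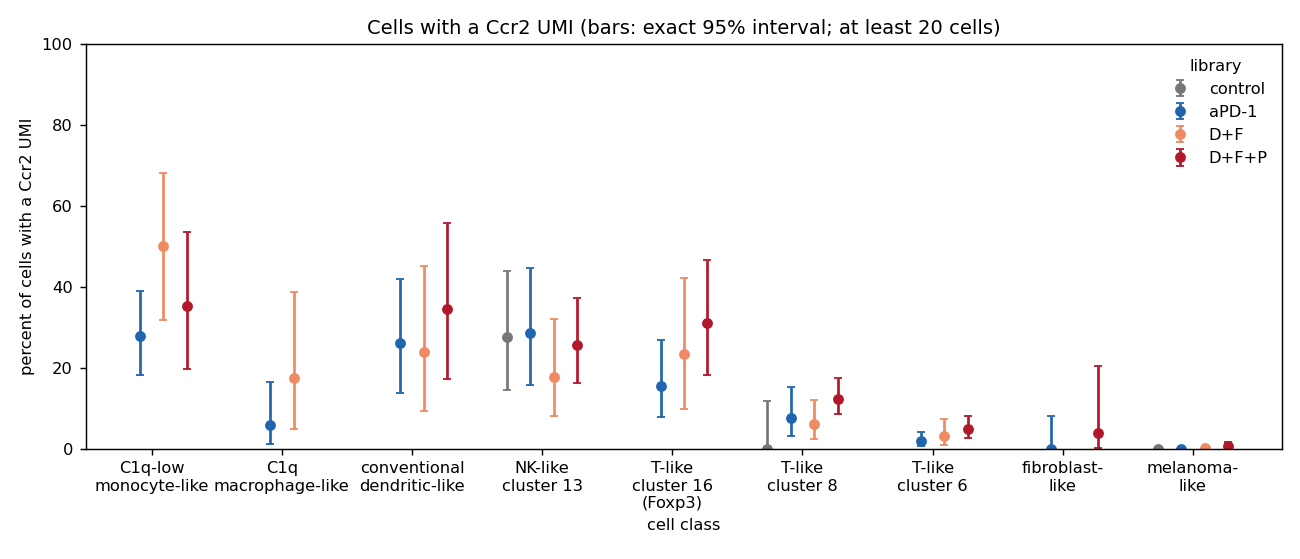
Percent of cells with a Ccr2 UMI (vertical axis) by class (horizontal axis) and library, for classes with at least 20 cells, with exact 95% intervals as bars. The C1q-low monocyte-like cells of D+F reached 50.0%, and melanoma-like cells lay at 0.569% or below in each library.

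Ccr2 was compared between libraries within the myeloid class too. In monocyte/macrophage-like cells its ratio was -0.05 (-0.84 to 0.8) in aPD-1 against control, 0.26 (-0.65 to 1.2) in D+F against control and 0.56 (-0.32 to 1.49) in D+F+P against control. The ratio was 0.31 (-0.48 to 1.1) in D+F+P against D+F. It passed 1.5-fold at 0.61 (-0.07 to 1.27) in D+F+P against aPD-1, where 12.5% of 4770 genes were called higher. Every one of these intervals contained 0. In C1q-low monocyte-like cells of D+F+P against D+F the ratio was -0.71 (-1.64 to 0.2), past 1.5-fold beside 16.4% of genes called lower, with an interval that contained 0, and against aPD-1 -0.32 (-1.14 to 0.46, where 13.8% of 2567 genes were called higher and 19.3% lower). At 18 to 56 UMIs per library in the class, smaller differences in Ccr2 were not detectable. Over all kept cells Ccr2 was at 1.16, 5.04, 3.18 and 10.7 CPM. In T-like cells the Ccr2 ratio of D+F+P against aPD-1 was 1.01 (0.46 to 1.61, 125 against 34 UMIs), called higher. Of 9852 genes measured there, 16.2% were called higher and 4.41% lower. The T-like ratio of D+F+P was -0.03 (-0.55 to 0.53) against D+F and -0.47 (-1.63 to 1.0) against control. The part of lymphocyte numbers in the levels over all cells was not tested.

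Other genes of the system were read from lists, in monocyte/macrophage-like cells. Between D+F and control 17.7% of all genes were called higher and 15.5% lower, and from D+F to D+F+P 14.4% were called higher and 15.6% lower. List counts near these shares are not results about the list. Of 13 C1q macrophage genes, 11 were measured in D+F against control, 7 higher and 0 lower, with a median of 1.46 against 0.03 over all genes. Ms4a7, a membrane protein of macrophages, was at 381 CPM in D+F and 97.4 in the control (1.97), and Selenop, a selenium carrier, was at a ratio of 1.85. Pf4 (0.13) and Apoe (0.19) had the smallest ratios of the list. With the antibody added to D+F, 9 of the 11 measured were lower and 0 higher, with a median of -1.15 against -0.01. Pf4 was at 79.7 against 422 CPM (-2.4) and the folate receptor Folr2 at -1.84, while Adgre1 was at -0.44 and Ms4a7 at -0.12, with 67.4% of its D+F+P UMIs in 1 cell. C1q macrophage-like cells were 29.9% of the class in D+F and 14.3% in D+F+P, and their part in these counts was not tested.

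Classical monocyte genes were counted in the same way. Comparing D+F+P with D+F, 6 of 11 were higher and 0 lower, beside 14.4% and 15.6% of all genes. The median was 0.62 against -0.01 over all genes. Ly6c2, the surface antigen of classical monocytes, was at 1044 against 405 CPM (1.37), and S100a4 was at 1.32. F13a1 (-0.58) had the lowest ratio of the list, followed by Vcan (-0.26). In D+F against control 2 of 11 were higher and 3 lower, with a median of 0.05, beside 17.7% and 15.5% of all genes. Vcan was at 1.03, while Hp was at -1.58 and Chil3 at -1.07.

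Among known inducers of Ccl2, 5 of 9 were measured in D+F against control, 1 higher and 2 lower, with a median of -0.43. Of all genes, 17.7% were called higher and 15.5% lower there, and 14.4% and 15.6% in D+F+P against D+F. Il1b, an inflammatory cytokine, was at 1262 against 3948 CPM (-1.65), Il1a at -0.73, Tnf at 0.32 and Tgfb1 at 0.62. For D+F+P against D+F, 3 of 5 were lower and 0 higher, with Il1b at 551 against 1262 CPM (-1.2), Il1a at -1.19, Osm at -0.35 and Tgfb1 at 0.57. The NF-kB list had 3 of 10 measured genes higher and 1 lower in D+F against control (median 0.15), with Irf1 at 683 against 181 CPM (1.91), Icam1 at 0.82, Nfkbiz at -0.54 and Nfkb2 at -0.8. The same list had 6 of 11 genes lower and 2 higher in the comparison of D+F+P with D+F, with a median of -0.67. Nfkbiz was at 133 against 435 CPM (-1.71) and Nfkbie at -1.39, while Rela was at 2.23 and Nfkb2 at 1.1. In this class Ccl2 was higher in D+F than in the control while Il1b was lower. Over the libraries together, sub-cluster 1 held Il1b at 3287 CPM and C1q macrophage-like cells at 454 CPM. Sub-cluster 1 was 50.8% of the class in the control and 15.6% in D+F, and its part in these ratios was not tested.

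The other CCL ligands did not share 1 direction. In D+F against control 6 of 16 were measured, 1 higher and 2 lower. The shares of all genes were 17.7% and 15.5% there, and 14.4% and 15.6% in D+F+P against D+F. Ccl3 was at 1119 against 2001 CPM (-0.84) and Ccl5 at -0.8, and Ccl6 was at 0.29. Ccl24, a ligand of Ccr3, was at 0 UMIs in the control, which allows up to 13.3 CPM, and at 173 CPM in D+F, where 1 cell held 66.7% of the UMIs. The D+F+P level of Ccl3 was at 292 against 1119 CPM for D+F (-1.94) and that of Ccl4 at 1682 against 4118 CPM (-1.29), while Ccl24 was at -0.05 and Ccl5 at 0.7, with 1 of 6 higher and 2 lower.

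Of 10 other receptors of monocyte attractants, 5 were measured in D+F+P against D+F, 3 higher and 1 lower. There 14.4% of all genes were called higher and 15.6% lower, and in D+F against control 17.7% and 15.5%. Csf1r, the receptor of the macrophage growth factors Csf1 and Il34, was at 0.72, Cxcr4 at 0.74 and the atypical receptor Ccrl2 at -0.81. In D+F against control 0 of 4 were higher and 1 lower, with Ccr1 at -0.35, Csf1r at -0.43 and Ccrl2 at -0.7. Of 12 genes of Ccr2 coupling and monocyte migration, 10 were measured in D+F+P against D+F, 1 higher and 1 lower. Itgam, an integrin chain, was at 0.6, Ptk2b at -0.36 and Arrb2, which binds active receptors, at -0.68. In D+F against control 2 of 10 were higher and 1 lower, with Arrb2 at 0.87, Itgam at -0.1 and Itgal at -0.93. Of 6 growth and other attracting factors only Vegfa was measured in either comparison, at -1.21 in D+F against control and 0.24 in D+F+P against D+F.

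The same lists were counted in the other comparisons. In aPD-1 against control, 6 of 11 measured C1q macrophage genes were higher and 1 lower (median 0.6 against 0.06 over all genes). For the NF-kB list 3 of 11 genes were higher and 1 lower. Of all genes, 20.6% were called higher and 14.0% lower in that comparison. Against aPD-1, the D+F+P class had 8 of 11 C1q macrophage genes lower and 0 higher (median -0.75 against -0.05). It had 5 of 11 NF-kB genes lower and 0 higher, and 5 of 11 classical monocyte genes higher and 0 lower. The shares of all genes there were 12.5% higher and 19.0% lower. In D+F+P against control, 4 of 5 measured inducers of Ccl2 were lower and 1 higher, with a median of -0.8. Beside them, 18.3% of all genes were called lower and 20.6% higher.

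Transcripts of other cell types also moved in the class. Melanoma markers summed to 1443 CPM in the monocyte/macrophage-like cells of the control, 809 in aPD-1, 517 in D+F and 289 in D+F+P, and the part of such transcripts in the ratios was not tested.

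In fibroblast-like cells of D+F+P against aPD-1, 4 of 10 measured NF-kB genes were higher and 0 lower, with a median of 0.49 against 0.03 over all genes. Of all genes measured there, 22.0% were called higher and 15.7% lower. Rela was at 0.99, Relb at 0.97, Nfkbia at 0.1 and Birc3 at -0.37. Of 5 measured growth and attracting factors 3 were higher and 1 lower. Il34 was at 86.0 against 8.02 CPM (3.42). Beside these, Il34 was at 55.7 CPM in the control and 74.5 in D+F, from 4 and 3 UMIs. Vegfa was at 0.86, Csf1 at 0.03 and Csf2 at -0.64. Of the other CCL ligands, Ccl11, the eotaxin that acts on Ccr3, was at 794 against 89.5 CPM (3.15), with 53.9% of its D+F+P UMIs in 1 cell, and Ccl5 was at 0.98.

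Genes whose levels were most like those of each member were ranked over 48 sums of a class in a library, by Pearson's r of log2(CPM + 1). These sums share libraries and depth, and r is given as a description. For Ccl2 they included Cfb (0.88), Mmp19 (0.84), Emilin2 (0.83) and Gda (0.82). For Ccl7 they were Cfb (0.85), C3 (0.85), Creb5 (0.82), Mmp19 (0.82) and Pilra (0.81). Cfb encodes complement factor B, and it led the ranking for each of the pair found in fibroblast-like and macrophage-like cells alike. For Ccl8 they were Fblim1 (0.81), Ms4a7 (0.77), Hebp1 (0.76), Adm (0.73) and Pdlim4 (0.73). For Ccl12 they were Trem2 (0.91), C3ar1 (0.9), Dab2 (0.88), C1qa (0.87) and Gdf15 (0.86), several of them macrophage genes. For Ccr2 they were Ifi209 (0.83), Myo1f (0.83), H2-D1 (0.82), Arl4c (0.82) and Rel (0.82). Among the members, Ccl2 and Ccl7 were at 0.88, and Ccr2 lay between -0.08 and 0.29 with the ligands.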

How the data were processed

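Dissociated B16F10 tumours, 1 library per group, were profiled with 10x 5' single-cell chemistry, per the labels. Per the submitters' processing notes, the tool was Cell Ranger 3.1.0 and the build GRCm38, also called mm10; the annotation release is not given in the sources used here. The authors deposited raw UMI counts per gene and barcode, with no normalization, per the file headers. Gene positions came from GENCODE M21 on GRCm38.

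Kept cells had at least 300 genes and 500 UMIs, with mitochondrial UMIs at 20% or less. Scrublet, run through scanpy 1.11.5, marked 46 of 9461 barcodes (0.486%), which were removed; under a bound of 0.5% the caller counts as having failed, so the data still hold doublets. Counts were scaled to 10000 per cell, and Leiden clusters (leidenalg 0.10.2, resolution 1, 2000 variable genes without the 5 members, 30 components, 15 neighbours, no integration) were named where at least 3 markers of a type were each found in 10% of cells. Leading genes were limited to those in 10% of a cluster's cells, chosen after seeing the data. Sub-cluster 5 is led by melanoma markers and was kept in its class. An alternative left it out together with sub-cluster 1, and no setting left it out alone.

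Counts were summed per class and library. Intervals are exact Poisson (levels), Clopper-Pearson (shares) and conditional binomial (ratios), from scipy 1.17.1, at 95%. They cover counting error only. A count of 0 is given the limit of 3 counts. The code was checked on counts simulated for aPD-1 against control in monocyte/macrophage-like cells. Of 189 changed genes 96.8% were recovered, but 20.7% of 4268 unchanged genes also reached 1.5-fold in either direction. Named genes are the 5 members, the 2 highest and 2 lowest measured genes of each list per comparison described, and the 5 most similar genes per member, a similar gene having at least 100 UMIs; a few further values were named after being seen. The members and lists were chosen with earlier results of these data known. Alternatives changed the cell filter, doublet removal, resolution, variable genes, naming by cell, depth, scaling and the UMI minimum. Some genes that this rule names are not reported here.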

Additional observations from a re-analysis of the deposited data

Results flagged for a closer look

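The Ccl2 ratio had opposite signs in monocyte/macrophage-like and melanoma-like cells of the same libraries, but the melanoma-like values rest on few UMIs. In D+F against control its log2 ratio was 1.07 in monocyte/macrophage-like cells and -1.28 in melanoma-like cells, where 5.22% of 12425 genes were called lower. In D+F+P against D+F it was 1.71 in melanoma-like cells, where 5.19% of 12148 genes were called higher, and -1.26 in monocyte/macrophage-like cells. The melanoma-like counts were 42 UMIs in the control, 15 in D+F and 26 in D+F+P, and 1 cell held 7 of the 15 and another 19 of the 26. With cells thinned to 1000 UMIs the melanoma-like ratio of D+F against control turned to 1.15. Without the richest cells the melanoma-like ratio between D+F+P and D+F was 0.72 (-0.97 to 2.38) on 15 UMIs, too few for a call. The difference between the classes was not tested.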

How the results depend on the processing

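No paired analysis was possible because each group is 1 library. In monocyte/macrophage-like cells D+F against control had 3 ligands higher and 0 lower, and D+F+P against D+F had 0 higher and 4 lower. Both results were the same under every setting that gave a count. The stricter cell filter gave no count for this class against the control, so D+F against control was not checked under it. Other counts moved, and the cause was not tested. In these cells, aPD-1 against control had 1 ligand higher (not 2) with no doublet removal, with cells named by their own markers and with thinned cells. It had 2 lower (not 1) without the unnamed sub-clusters and 0 without the richest cells, both settings chosen after seeing the data. D+F+P against control had 0 higher (not 1) with no doublet removal or without the richest cells, and 2 higher with 0 lower at resolution 2. D+F+P against aPD-1 had 1 higher (not 0) with the stricter filter or without the unnamed sub-clusters, 2 higher at resolution 2, and 2 lower without the richest cells. With all kept cells thinned, D+F+P against D+F had 0 higher and 1 lower (not 3 and 0), and D+F+P against aPD-1 had 2 lower (not 1). Called ratios that changed sign were Ccl12 in D+F+P against control at resolution 2 (0.13), Ccl7 in C1q-low monocyte-like cells of D+F+P against aPD-1 with the stricter filter (-0.05), and Ccl8 over thinned cells of D+F+P against D+F (-0.66). In melanoma-like cells the called Ccl2 ratio changed sign when thinned, in aPD-1 (0.78) and D+F (1.15) against control, and in D+F+P against aPD-1 with cells named by their own markers (-0.36) and without the richest cells (-0.62). Besides these 7, another 33 of the 584 ratios under the alternatives changed sign from a value that had not been called. Without the richest cells these included Ccl8 (0.13 to -1.0) and Ccl12 (0.58 to -0.06) of D+F+P against aPD-1 in monocyte/macrophage-like cells, and Ccl2 (0.43 to -1.12) of D+F+P against control in melanoma-like cells. Few UMIs lie behind Ccr2 in the myeloid class and behind Ccl12 in fibroblast-like cells, which limits the precision of both.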

Other observations

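Ccl24, a ligand of Ccr3, appeared in monocyte/macrophage-like cells of the libraries with doxorubicin and fasudil. It was found in 0 of 59 cells in the control, 1 of 194 in aPD-1, 5 of 77 in D+F and 9 of 63 in D+F+P, at 0, 1.37, 173 and 167 CPM. In D+F and D+F+P 1 cell held 66.7% and 65.9% of the UMIs. In fibroblast-like cells Ccl11, the eotaxin, was at 139, 89.5, 869 and 794 CPM in the 4 libraries in the same order, from 10, 67, 35 and 323 UMIs. Il34, a growth factor of macrophages, was found in 3 of 13 fibroblast-like cells in the control, 6 of 44 in aPD-1, 2 of 7 in D+F and 11 of 25 in D+F+P, at 55.7, 8.02, 74.5 and 86.0 CPM. Among the 4 libraries aPD-1 had the lowest Il34 level, but these levels rest on 4, 6, 3 and 35 UMIs. The order of aPD-1 against the control and D+F is therefore uncertain. These genes were singled out after their values had been seen.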
